A study of Mus musculus with 24 samples.

Results

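The genes described here encode the augmin complex (HAUS complex), which is built of the proteins of Haus1, Haus2, Haus3, Haus4, Haus5, Haus6, Haus7 and Haus8. They were selected by symbol, and all 8 were found among the 16940 genes of the table. Augmin was chosen because Haus1 had stood out in earlier comparisons of the same libraries, so the values of Haus1 are given as a description with no test. The question put to the other 7 subunits was whether their transcripts differed between the genotypes as well.

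RNA-seq was made from pools of mouse oocytes, strain B6/129, in 8 groups with 2 libraries each. Wild type (WT) oocytes were Snf2h(fl/fl), and knockout (KO) oocytes were ZP3-Cre, Snf2h(fl/fl). Both genotypes carry the floxed allele of Snf2h, an ATPase of the ISWI family of chromatin remodelers encoded by Smarca5, and Cre is given for the KO alone, so an effect of Cre and one of Snf2h loss cannot be told apart. The Zp3 promoter drives Cre in growing oocytes. GO1 oocytes were growing oocytes of 40 to 45 µm, GO2 growing oocytes of 50 to 55 µm, and FGO fully grown oocytes of over 70 µm taken after hormone stimulation. The nFGO oocytes were of the same size without hormone, and their libraries are labelled polyA RNA where the other libraries are labelled total RNA. The age of the mice and whether replicates came from separate animals are not given in the sources used here, so p-values measure only the spread between these libraries. RPKM (reads per kilobase of transcript, scaled to the reads of the library) is a share of each library. Less of a transcript and more of the other RNA therefore cannot be told apart. Nor can fewer cells that hold a transcript and less of it per cell.

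Augmin binds to the side of an existing microtubule and recruits the gamma-tubulin ring complex, so that a new microtubule branches off. Mouse oocytes build the meiotic spindle without centrioles, and branching of this kind helps to fill that spindle with microtubules. In the human complex HAUS2, HAUS6, HAUS7 and HAUS8 form the part that holds the microtubule, with a microtubule-binding stretch in HAUS8, and HAUS6 also binds NEDD1, the adaptor of the gamma-tubulin ring complex. HAUS1, HAUS3, HAUS4 and HAUS5 form the long stalk.

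The sequence just upstream of the annotated start was searched for the CCAAT box (CCAAT on either strand), a common promoter element, as a description of members that moved in opposite directions during growth. RefSeq (GRCm38.p6, the assembly of mm10) gave an upstream window of 250 bases for 7 of the 8 genes. CCAAT occurred in the windows of Haus3, Haus4, Haus6 and Haus7 and not in those of Haus2, Haus5 and Haus8, and 33.8% of all 32851 RefSeq mouse promoters held it. TATAAA, the TATA box, was in none of the 7 windows and in 12.4% of all promoters. The 7 windows held 12 to 34 CG dinucleotides, against a median of 6 over all promoters. Shown 5′ to 3′ along the gene, with the CCAAT match in capitals, are Haus5, Haus7 and Haus6. The Haus5 transcript fell in share during WT growth up to FGO, and the Haus7 transcript rose from GO2 to FGO. That of Haus6 was not called in either step up to FGO. Among the other genes with CCAAT, Haus4 fell in both WT steps (-0.81 and -0.99) and Haus3 rose from GO2 to FGO (0.55). Whether the motif goes with the direction was not tested. The windows of Haus5, Haus7 and Haus6 are chr7:30664995-30665244, chrX:73459045-73459279 and chr4:86612056-86612305, all on the minus strand. The Haus7 window leaves out the 15 bases that lie inside the gene span of the table. The searched windows of Haus4 and Haus8 lie wholly inside the gene spans of the table. Their RefSeq starts are 54554361 and 71272590, and the spans reach 54554616 and 71272934. Part of the Haus3 window also lies inside its span, so these are upstream of the RefSeq start only.
Haus5: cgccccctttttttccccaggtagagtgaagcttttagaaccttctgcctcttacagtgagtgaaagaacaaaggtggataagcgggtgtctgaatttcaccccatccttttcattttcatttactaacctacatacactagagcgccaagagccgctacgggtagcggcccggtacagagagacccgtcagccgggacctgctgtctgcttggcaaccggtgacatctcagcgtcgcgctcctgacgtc
Haus7: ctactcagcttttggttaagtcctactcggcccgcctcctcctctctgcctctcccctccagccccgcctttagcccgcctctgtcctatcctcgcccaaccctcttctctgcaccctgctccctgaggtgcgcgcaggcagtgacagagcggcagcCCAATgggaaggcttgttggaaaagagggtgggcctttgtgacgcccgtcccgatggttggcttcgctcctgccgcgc
Haus6: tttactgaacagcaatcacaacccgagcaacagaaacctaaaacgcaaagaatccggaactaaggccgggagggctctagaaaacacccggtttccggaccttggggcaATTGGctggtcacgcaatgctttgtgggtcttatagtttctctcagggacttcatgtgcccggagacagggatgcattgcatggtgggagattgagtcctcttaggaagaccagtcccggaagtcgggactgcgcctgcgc

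Library totals lay between 832384 and 1011538 RPKM, and 12613 to 12919 genes reached 1 RPKM in each library. Replicates correlated with r of 0.984 to 0.992 on log2(RPKM + 1). Smarca5 fell in KO oocytes at each stage, with log2 differences of -3.91 at GO1, -3.98 at GO2, -4.40 at nFGO and -3.905 at FGO (adjusted p = 0.000499, 0.000669, 7.81e-05 and 9.41e-05, limma with Benjamini-Hochberg adjustment). All 12 oocyte markers were in the table, with summed levels of 12510 to 30910 RPKM per library. Their sum was lower in the KO without overlap at GO2 (18820 to 19590 RPKM against 20780 to 22130 in WT), at nFGO (12560 to 13390 against 16300 to 17070) and at FGO (12510 to 12770 against 13180 to 18850). Of 12 granulosa and cumulus markers, 5 were in the table (Cyp19a1, Nr5a2, Inha, Fshr and Inhba). Their summed level was 33.1 to 40.6 RPKM in WT FGO and 43.7 to 49.3 in KO FGO, and 36.7 to 39.7 in WT nFGO and 59.4 to 68.3 in KO nFGO, so it was higher in the KO at both fully grown stages. At GO1 it was 18.3 to 20.3 in WT and 12.8 to 15.3 in KO, and at GO2 15.5 to 19.5 in WT and 23.2 to 28.3 in KO. Inha and Inhba were at 0 in 1 library each, and Cyp19a1 ranged from 2.60 to 42.8 RPKM over the 16 libraries. The 4 theca and stroma markers in the table summed to 0.397 to 12.1 RPKM, with 0.597 to 0.666 RPKM in KO FGO against 2.27 to 3.58 in WT FGO, and 1.13 to 1.31 in KO nFGO against 2.88 in both WT nFGO libraries. Of these 4, only Dcn reached 1 RPKM in WT FGO and WT nFGO, and none did in KO FGO or KO nFGO. The 1 blood and immune marker in the table, Cd68, was at 1.84 to 5.65 RPKM. What part the makeup of the pools had in the differences below was not tested.

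All 8 subunits were transcribed at every stage, at levels that differed widely between them. In WT GO1 oocytes the mean level was highest for Haus4 (450 RPKM), followed by Haus3 (360 RPKM) and Haus8 (219 RPKM). Haus1 (43.1 RPKM), Haus5 (33.2 RPKM) and Haus7 (22.7 RPKM) came next. Haus2 (9.79 RPKM) and Haus6 (9.12 RPKM) were lowest, and their libraries overlapped, while every other neighbouring pair in this order was apart. The highest mean was 49.3 times the lowest.

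By WT FGO the order had changed and the range had widened, with the highest mean 237 times the lowest. Haus3 led at 613 RPKM. Haus1 (142 RPKM), Haus4 (130 RPKM) and Haus8 (119 RPKM) followed, and neighbours among these overlapped. Haus7 stood at 59.8 RPKM, Haus6 at 11.4, Haus5 at 7.74 and Haus2 at 2.59. In KO FGO oocytes Haus1 had a mean of 38.4 RPKM and overlapped with Haus7 at 39.1 RPKM, below Haus4 (167 RPKM) and Haus8 (86.5 RPKM).

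**Figure D1:**
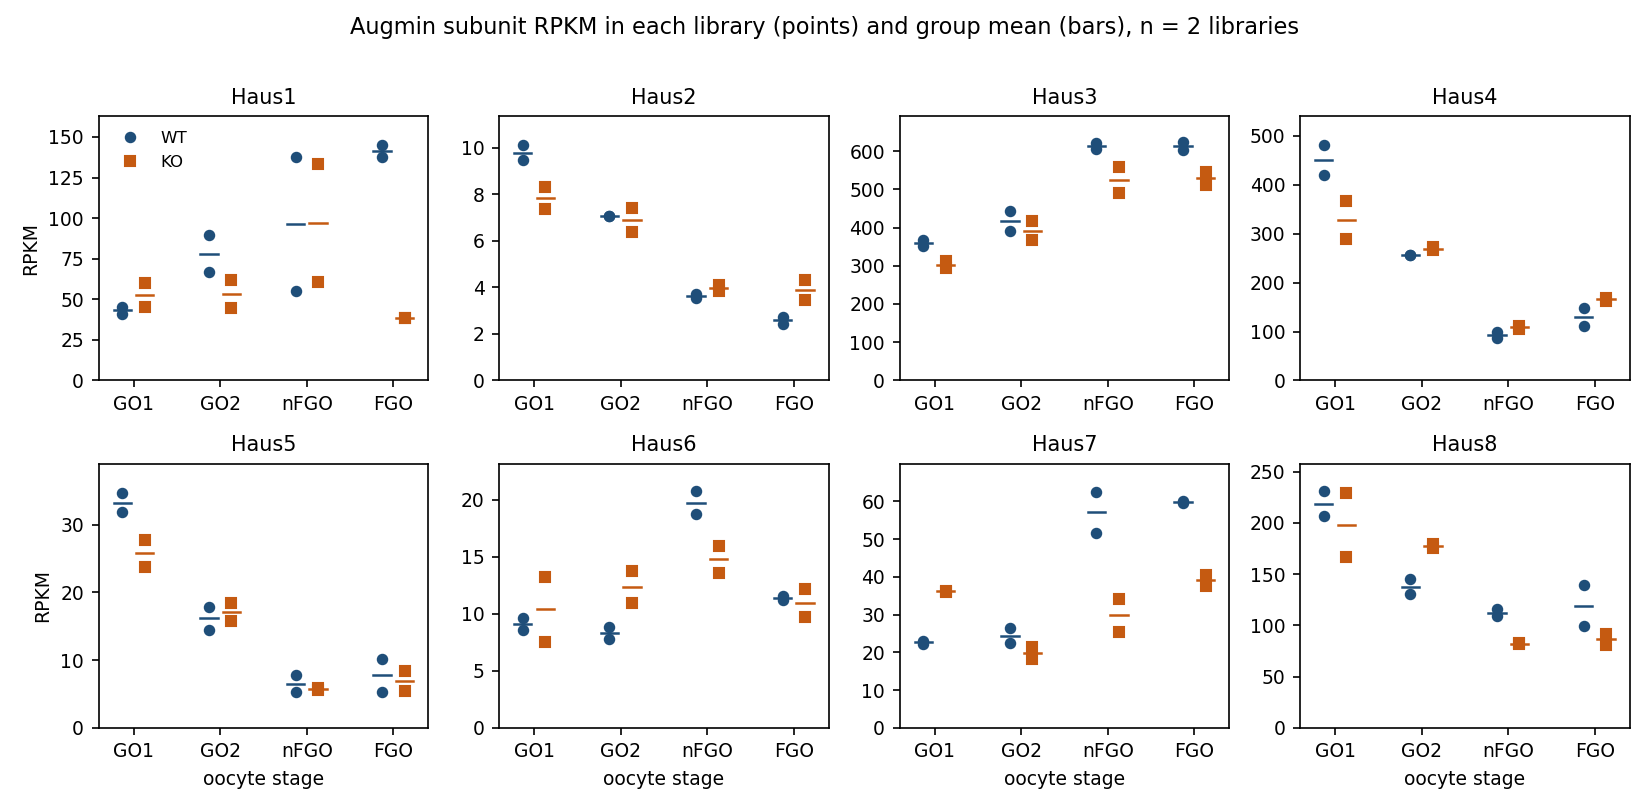
RPKM of the 8 augmin subunits (linear axes from 0, a separate scale for each gene) at the 4 stages, with WT as blue circles, KO as orange squares and short bars for the mean of 2 libraries. Haus1 in FGO shows WT libraries at 138 and 145 RPKM and KO libraries at 38.4 and 38.5 RPKM, while the nFGO replicates of both genotypes lie far apart.

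Haus1 (ENSMUSG00000041840.7, chromosome 18, 77757567 to 77767780, minus strand, mm10) encodes a stalk subunit. In WT oocytes its level was 45.2 and 41.05 RPKM at GO1, 89.7 and 66.5 at GO2, and 145 and 138 at FGO. In KO oocytes it was 45.4 and 60.2 RPKM at GO1, 44.8 and 61.7 at GO2, and 38.4 and 38.5 at FGO. At FGO the KO libraries were both far below the WT libraries, and at GO2 they were below them by a smaller gap, while at GO1 they were above.

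The WT mean of Haus1 at FGO was 3.68 times the KO mean, and the difference on log2(RPKM + 1) was -1.85. Of the 14557 genes tested, 114 (0.783%) differed by as much or more in this direction. Haus1 was picked on these same libraries, so this share and the authors' p-value below describe it and lend no support. The difference was 0.27 at GO1 and -0.55 at GO2. The authors' deposited table gives Haus1 a log2 fold change of -1.91 at FGO (p = 8.33e-36), the call down-regulated there, and the call similar_level at the other 3 stages. The nearest tested genes on either side that do not overlap Haus1 were 8030462N17Rik and Atp5a1, 43.6 and 5.9 kb away. They had differences of 0.13 and -0.15 at FGO.

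In nFGO oocytes, which had no hormone, Haus1 was at 54.8 and 138 RPKM in WT and at 60.7 and 133 RPKM in KO. In both genotypes replicate 2 was near the WT FGO level and replicate 1 far below it, so the genotypes overlapped. The difference between the genotypes at nFGO was 0.05, and it was -0.61 or 0.71 without the first or second WT nFGO library and 0.61 or -0.51 without the first or second KO nFGO library. Replicate 2 was more than 2-fold above replicate 1 in both genotypes for 12 of 9002 genes (0.133%), Haus1 among them, with log2 differences of 1.31 in WT and 1.12 in KO. A further 13 genes were more than 2-fold the other way in both, and 12 went opposite ways.

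The remaining stalk subunits showed smaller differences between the genotypes. Haus3 (ENSMUSG00000079555.2, chromosome 5, 34153880 to 34169527) was at 624 and 603 RPKM in WT FGO and at 546 and 513 RPKM in KO FGO. The KO libraries of Haus3 were below the WT libraries at GO1, nFGO and FGO and overlapped with them at GO2. Its differences were -0.25, -0.10, -0.23 and -0.21 at GO1, GO2, nFGO and FGO, none of them called alone. Averaged over the 4 stages, Haus3 fell by 0.20 (SE 0.05, adjusted p = 0.00666, limma with Benjamini-Hochberg adjustment). With quantile normalization that average was -0.11 and not called (adjusted p = 0.0645). Haus3 shares 15569 of its 15648 bases with Poln on the same strand (10.6 to 32.9 RPKM), and how reads were divided between the genes is not given in the sources used here, so its level is uncertain.

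Haus4, another stalk subunit, was at 481 and 419 RPKM in WT GO1 and at 288 and 366 in KO GO1. In FGO it was at 111 and 148 RPKM in WT and at 163 and 169 in KO. The KO libraries were thus lower than WT at GO1 and higher at FGO, without overlap at either stage. The differences were -0.46 at GO1 (adjusted p = 0.0679) and 0.37 at FGO (adjusted p = 0.0844), neither called by limma with Benjamini-Hochberg adjustment. The change between these differences was 0.84 (SE 0.20, adjusted p = 0.0414, limma interaction), and this call was lost without any 1 of 6 of the 8 libraries of these groups, with adjusted p between 0.0747 and 0.137 (both WT GO1, the first KO GO1, the first WT FGO and both KO FGO libraries). Haus5, the last stalk subunit, differed by -0.36, 0.08, -0.15 and -0.10 at GO1, GO2, nFGO and FGO, and none was called. It overlaps Gm21982 on the same strand over 11227 of 11284 bases, and Gm21982 did not exceed 0.243 RPKM.

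Under the main settings Haus7 (chromosome X, 73437315 to 73459044, minus strand) alone among Haus2 to Haus8 was called at single stages. It belongs to the microtubule-holding part and is also known as the UCHL5-interacting protein. At FGO it was at 59.4 and 60.1 RPKM in WT and at 37.6 and 40.6 in KO. At nFGO it was at 51.6 and 62.6 RPKM in WT and at 34.2 and 25.5 in KO. In both kinds of fully grown oocyte the KO libraries were below the WT libraries without overlap.

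Haus7 fell in the KO by 0.92 at nFGO (SE 0.15, adjusted p = 0.00219) and by 0.60 at FGO (SE 0.15, adjusted p = 0.0169; limma with Benjamini-Hochberg adjustment). The nFGO call held with each of its 4 libraries left out, and with those 4 libraries fitted alone its adjusted p was 0.0519. The FGO call was lost without any 1 of the 4 FGO libraries, with adjusted p from 0.0603 to 0.0918. The authors' deposited table calls Haus7 down-regulated at both stages, with log2 fold changes of -1.14 at nFGO and -0.69 at FGO. The summed granulosa markers were higher in the KO at these same stages, with Cyp19a1 the highest of them in each group. The summed oocyte markers were lower, as were the summed theca and stroma markers, of which Dcn alone reached 1 RPKM. What part the makeup of the pools had in the Haus7 values was not tested. The nearest tested genes on either side of Haus7 that do not overlap it were also lower in the KO at these stages. Zfp92 had differences of -0.45 at nFGO and -0.29 at FGO, and Bgn, at 5.47 RPKM or less, of -0.89 and -1.42. At GO1, where Haus7 was higher in the KO, Zfp92 and Bgn had differences of -0.24 and -0.33. At GO2 these were 0.05 and -0.31.

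At GO1 alone Haus7 was higher in the KO. At GO1 it was at 22.3 and 23.1 RPKM in WT and at 36.3 and 36.05 in KO, and at GO2 at 22.5 and 26.4 in WT and at 18.1 and 21.4 in KO. The KO libraries lay above WT at GO1 and below at GO2. Haus7 rose by 0.65 in KO GO1 (SE 0.15, adjusted p = 0.0271, limma with Benjamini-Hochberg adjustment), and this call was lost without the first or second WT GO1 library (adjusted p = 0.131 and 0.110) or the first KO GO1 library (0.111). The authors' deposited table gives similar_level at GO1, with a log2 fold change of 0.46 (p = 0.0239). The change between the genotype difference at GO1 and that at FGO was -1.25 (SE 0.21, adjusted p = 0.0116, limma interaction), and it was called under every alternative run. Averaged over the 4 stages Haus7 fell by 0.29 (adjusted p = 0.0108).

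None of the other subunits of the microtubule-holding part was called at any stage under the main settings. Haus2 was called at FGO with a pseudocount of 0.1, equal library medians, no filter or no variance trend. With only the nFGO libraries fitted, Haus8 was called at nFGO and Haus7 was not. Haus8, which binds microtubules, was at 99.2 and 139 RPKM in WT FGO and at 81.1 and 91.8 in KO FGO, and at 109 and 116 in WT nFGO and at 81.4 and 82.8 in KO nFGO. Its KO libraries were lower than WT at both stages without overlap, with differences of -0.44 (adjusted p = 0.0827) and -0.45 (adjusted p = 0.0825, limma with Benjamini-Hochberg adjustment). Haus6 differed by -0.40 at nFGO and by -0.06 at FGO, and Haus2 by 0.10 and 0.44 (adjusted p at FGO 0.0599, limma). At GO2 the KO libraries of Haus6 and Haus8 were above the WT libraries without overlap. The differences there were 0.51 for Haus6 and 0.365 for Haus8 (adjusted p = 0.178 and 0.197, limma with Benjamini-Hochberg adjustment). Haus8 shares 221 bases with Myo9b on the opposite strand and Haus2 shares 138 bases with Lrrc57, and the kit is not stated to keep strand. Myo9b had differences of 0.86 at nFGO and 0.95 at FGO.

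Over Haus2 to Haus8 together, the counts of calls were small. At GO1 1 of 7 was called (Haus7, higher in KO), where 6.63% of all tested genes were called. At GO2 0 of 7 were called by limma with Benjamini-Hochberg adjustment, against 7.64% of all genes. At nFGO 1 of 7 (Haus7) was called against 16.2%, and at FGO 1 of 7 (Haus7) against 17.8%. For the mean over the 4 stages 2 of 7 (Haus3 and Haus7) were called against 33% of all genes. For the change between the difference at GO1 and that at FGO 2 of 7 (Haus4 and Haus7) were called against 3.48%. An unadjusted limma p under 0.05 was found for 3 of 7 at GO1, 2 at GO2, 3 at nFGO and 5 at FGO, where the shares of all tested genes were 24.6%, 23.8%, 30.6% and 32.2%.

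The median difference of the 7 was -0.25 at GO1, 0.07 at GO2, -0.23 at nFGO and -0.10 at FGO, where the medians of all tested genes were -0.03, 0.00, -0.01 and -0.01. WT and KO libraries did not overlap for 5 of the 7 at GO1, 4 at GO2, 6 at nFGO and 5 at FGO. Among all tested genes the shares without overlap were 50.3%, 60.5%, 61.2% and 59.9%. The difference of Haus1 at FGO, -1.85, was outside the range of the other subunits at that stage, which ran from -0.60 to 0.44. Because Haus1 was picked on these libraries, this is a description and no test.

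**Figure D2:**
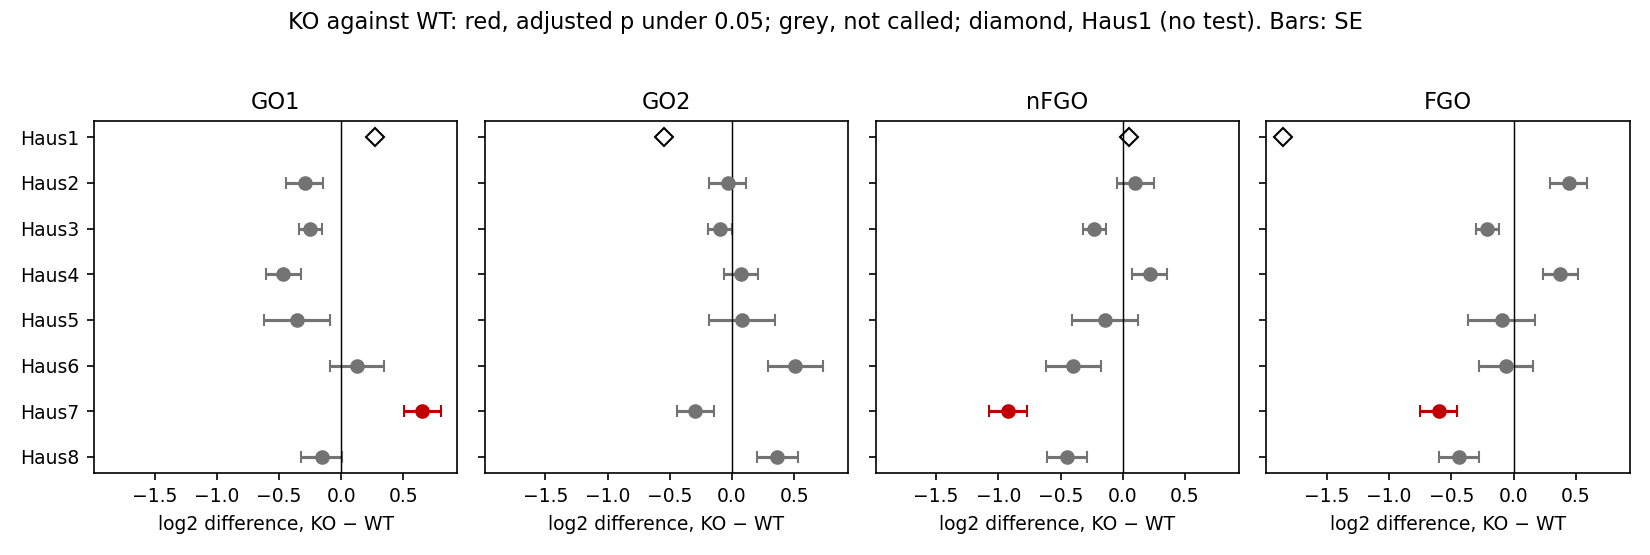
Difference between KO and WT on log2(RPKM + 1) for each subunit at each stage, with SE bars from limma, red for an adjusted p under 0.05, grey for the rest and a diamond for Haus1, which was not tested. Haus7 is the red point at GO1 (0.65), nFGO (-0.92) and FGO (-0.60), and Haus1 lies at -1.85 at FGO.

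During growth the RPKM of some subunits rose and that of others fell. These comparisons use the same libraries as those between the genotypes. RPKM is a share of each library, and the oocytes differ in size between the stages. A rise or fall here is thus one of share, and the amount per oocyte was not measured. FGO oocytes were taken after hormone stimulation, so growth and hormone cannot be told apart in the step from GO2 to FGO. From GO1 to GO2 in WT, 3 of the 7 subunits Haus2 to Haus8 were called, all lower, where 7.55% of all genes were called. Haus5 fell by 1.002 (SE 0.27, adjusted p = 0.0416), Haus4 by 0.81 (SE 0.14, adjusted p = 0.0123) and Haus8 by 0.66 (SE 0.16, adjusted p = 0.0321; limma with Benjamini-Hochberg adjustment). All 3 calls were lost without the first or second WT GO1 library or the first WT GO2 library, and those of Haus5 and Haus8 without the second WT GO2 library, with adjusted p between 0.0606 and 0.231.

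From GO2 to FGO in WT, 5 of these 7 were called against 48.4% of all genes. Haus7 rose by 1.26 (SE 0.15, adjusted p = 3.66e-05) and Haus3 by 0.55 (SE 0.09, adjusted p = 0.000428). Haus2 fell by 1.17 (SE 0.15, adjusted p = 5.8e-05), Haus5 by 1.03 (SE 0.27, adjusted p = 0.0072) and Haus4 by 0.99 (SE 0.14, adjusted p = 0.000122; limma with Benjamini-Hochberg adjustment). The Haus5 call was lost without the second WT GO2 library (adjusted p = 0.0599) or the first WT FGO library (adjusted p = 0.0855). Both stalk and microtubule-holding subunits were thus among those that rose and among those that fell. Haus6 was not called in this step. In WT nFGO, without hormone, Haus6 was at 18.7 and 20.8 RPKM, against 8.88 and 7.76 in WT GO2. The nFGO libraries also carry another RNA label, and this difference was not tested.

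The WT mean of Haus1 went from 43.1 RPKM at GO1 to 78.1 at GO2 and 142 at FGO, changes of 0.83 and 0.86 on log2(RPKM + 1). In the KO the changes over the same steps were 0.01 and -0.44. These changes were not tested, since Haus1 was picked for its values in the same libraries. The WT libraries did not overlap between these stages, while the KO libraries at GO1 and GO2 did. The nFGO replicates of Haus1 differed 2.51-fold in WT and 2.19-fold in KO.

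In KO oocytes Haus3 and Haus7 rose again in the late step, and Haus2, Haus4 and Haus5 fell again. From GO2 to FGO 6 of these 7 were called against 41.7% of all genes, with Haus7 (0.95) and Haus3 (0.44) higher and Haus5 (-1.20), Haus8 (-1.03), Haus2 (-0.70) and Haus4 (-0.69) lower. From GO1 to GO2 in the KO, 2 of the 7 were called against 9.5% of all genes. Haus7 fell by 0.84 (adjusted p = 0.00518) and Haus3 rose by 0.36 (adjusted p = 0.0297, limma with Benjamini-Hochberg adjustment), and the Haus3 call was lost without the first KO GO1 library (adjusted p = 0.115) or either KO GO2 library (0.199 and 0.0622).

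**Figure D3:**
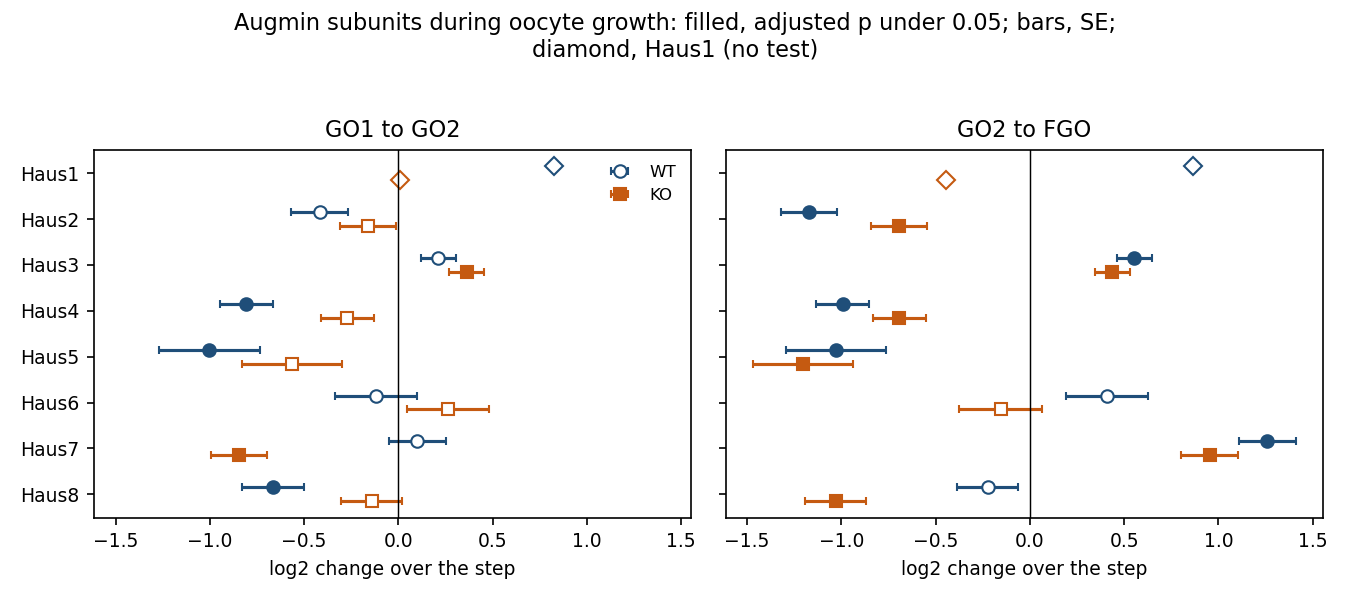
Change of each subunit from GO1 to GO2 and from GO2 to FGO on log2(RPKM + 1), with WT as blue circles, KO as orange squares, filled where the limma adjusted p was under 0.05, with SE bars, and open diamonds for Haus1, which was not tested. Haus2, Haus4 and Haus5 lie to the left and Haus3 and Haus7 to the right in the late step in both genotypes, where Haus1 lies at 0.86 in WT and -0.44 in KO.

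Over the 16 libraries, which share stages and genotypes, Haus2, Haus4, Haus5 and Haus8 followed one another with Pearson's r of 0.78 to 0.95 on log2(RPKM + 1). Haus3 ran against these 4, with r from -0.90 to -0.77. Haus1 had r of -0.53 to 0.54 with the other subunits. Among 9156 genes with a mean of at least 5 RPKM, those most like Haus1 were Cmss1 (r = 0.85), Kiz (0.81), Lbr (0.80), Gm12130 (0.80) and Asf1a (0.80). Those most like the mean of Haus2 to Haus8 were Rpn2, Padi6, Zp2, Zp3 and Pabpc4, each with r of 0.97.

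**Figure D4:**
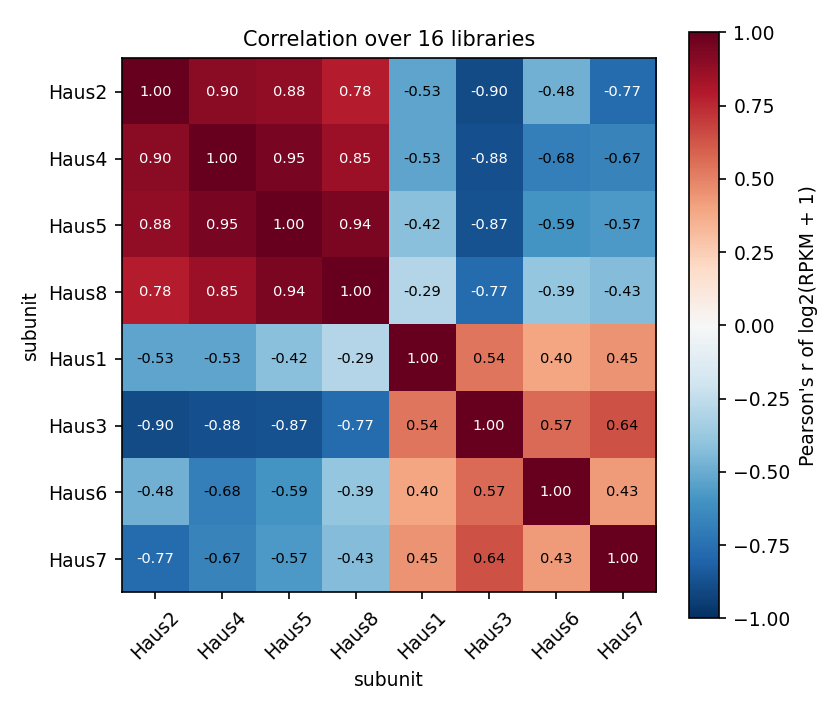
Pearson's r between subunits of log2(RPKM + 1) over the 16 libraries, from blue at -1 to red at 1, with the value in each cell. Haus2, Haus4, Haus5 and Haus8 form a red block (0.78 to 0.95), and each is blue against Haus3 (-0.90 to -0.77).

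The partners of augmin at the microtubule were taken from 2 lists. Of 13 genes of the gamma-tubulin ring complex and its targeting, 1 fell in the KO at GO1, 1 at GO2, 2 at nFGO and 2 at FGO, and 0 rose at any stage. Among all tested genes 6.63%, 7.64%, 16.2% and 17.8% were called at these stages. Nedd1, the adaptor that augmin recruits, had a mean of 104 RPKM in WT FGO and 66.8 in KO FGO and fell by 0.63 (adjusted p = 0.0211), as it did by 0.64 at nFGO (adjusted p = 0.0214) and by 0.62 at GO1 (adjusted p = 0.0455; limma with Benjamini-Hochberg adjustment). The Nedd1 call was lost at GO1 without either WT library or the first KO library. It was lost at nFGO without the second WT or either KO library, and at FGO without either WT or the second KO library. Tubgcp2, a core subunit of the ring complex, fell by 0.76 at nFGO and by 0.53 at FGO, and Mzt1, a small ring complex component, fell by 0.42 at GO2. The list had median differences of -0.15, -0.01, -0.24 and -0.11 at GO1, GO2, nFGO and FGO.

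Of 21 genes of Ran-dependent spindle assembly and branching, 20 were tested, and Eml3 was not analysed here. At GO1 1 rose, Numa1, a spindle pole protein (0.57). At GO2 2 fell, Nusap1, a microtubule-bundling protein (-0.55), and Ranbp1, a Ran-binding protein (-0.34). At nFGO 4 fell, led by Ckap5, a microtubule polymerase (-0.92), Nusap1 (-0.86) and Cltc, the clathrin heavy chain (-0.52), and at FGO 3 fell, Cltc (-0.61), Ckap5 (-0.52) and Ranbp1 (-0.37). The counts of 1, 2, 4 and 3 of 20 stand beside the same shares of all tested genes, 6.63%, 7.64%, 16.2% and 17.8%. Median differences of the list were -0.21, -0.06, -0.28 and -0.20. Leaving out 1 library of the stage moved the counts called in the 2 lists to between 0 and 8 at GO1, 0 and 1 at GO2, 1 and 4 at nFGO and 0 and 2 at FGO. The highest counts, 6 and 8 at GO1, came without the second KO GO1 library.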

How the data were processed

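The deposited table holds 1 RPKM value per gene and library, made by the authors per the file headers. The submitters' processing notes name DESeq (1.34.1), Cuffnorm, Cufflinks (2.2.1), deepTools (3.0.2), HISAT2 (2.1.0) and Trim Galore (0.4.5) and the build mm10, and the role of each tool is not given in the sources used here. Per the file headers the authors also deposited, for each stage, DESeq group means (normalized signal), a log2 fold change, a p-value whose adjustment is not stated, and a call in words. The labels' protocols name SMARTer cDNA and Nextera XT libraries.

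Of 16975 gene IDs, 35 with conflicting lines were left out, and 16940 genes were used. Whole reads could not be recovered (24.5 to 33.2% of low-value ratios lay within 0.005 log2 of small whole ratios), so the depth is unknown and no counting interval is given. Values were taken as log2(RPKM + 1), which understates the change of low genes. The 14557 genes that reached 1 RPKM in 2 or more libraries were fitted with limma 3.58.1 in R 4.3.3, with 1 mean per group over all 16 libraries, a variance trend, 8 residual degrees of freedom and Benjamini-Hochberg adjustment within each comparison. A call is an adjusted p under 0.05. The procedure was also run on simulated data with known changes set in KO FGO. The outcome is not given here, so it lends no support to the calls.

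The members and lists were chosen with earlier results of these data known. All members are named. From each pathway list up to 3 called genes with the largest change per stage are named, and for likeness the 5 genes with the highest r. Growth changes of Haus1, planned as tests, are given untested because Haus1 was picked on the same libraries. Alternatives covered the pseudocount, scaling, filter, variance trend, replicate block, libraries in the fit and leaving out each library. The study's ATAC-seq samples were not analysed here.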

Additional observations from a re-analysis of the deposited data

Results flagged for a closer look

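For several subunits both KO libraries lay on one side of both WT libraries at one stage and on the other side at another stage. Among all tested genes 50.3% to 61.2% did not overlap at a single stage, and the share that changed sides was not computed. These changes are therefore listed as a description. For Haus1 at GO1 the lower KO library was at 45.4 RPKM and the higher WT library at 45.2. The change in the difference between KO and WT was tested between GO1 and FGO for Haus7 (-1.25 on the log2 scale, adjusted p = 0.0116) and Haus4 (0.84, adjusted p = 0.0414), by a limma interaction with Benjamini-Hochberg adjustment. The same test for Haus2 gave 0.73 and was not called (adjusted p = 0.0797).

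The remaining changes of this kind were not tested. For Haus1 the difference at GO2 less that at GO1 was -0.82, and the difference at FGO less that at GO1 was -2.13. For Haus7 the difference at GO2 less that at GO1 was -0.95, and that at nFGO less GO1 was -1.57. For Haus4 these 2 changes were 0.54 and 0.68. For Haus2 the difference at nFGO less that at GO1 was 0.39. For Haus6 the difference at nFGO less that at GO2 was -0.91. For Haus8 the difference at nFGO less that at GO2 was -0.81, and that at FGO less GO2 was -0.80.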

How the results depend on the processing

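No called value changed direction under the alternatives run. The untested Haus1 difference at nFGO (0.05) changed sign without WT nFGO replicate 1 (-0.61) or KO nFGO replicate 2 (-0.51). The count of subunits called between KO and WT at GO1 (1) became 2 with quantile normalization and 0 with only the libraries of the groups compared. At nFGO the count (1) was unchanged with only the libraries compared, but the gene called was then Haus8 in place of Haus7. At FGO the count (1) became 2 with a pseudocount of 0.1, equal library medians, no filter or no variance trend, each of which added Haus2. It also became 2 with quantile normalization, which added Haus4. Over the mean of 4 stages it became 1 with quantile normalization (from 2). In WT from GO1 to GO2 it became 1 (from 3) with no variance trend or without the nFGO libraries, and in KO from GO1 to GO2 it became 1 with no variance trend and 0 with only the libraries compared (from 2). For the change between GO1 and FGO it became 1 (from 2) with no filter, with no variance trend, with only the libraries compared and without the nFGO libraries, an alternative chosen after seeing the data. The Haus1 difference at FGO became -1.75 with a pseudocount of 5 and -1.77 with quantile normalization. The cause was not tested.

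Leaving out 1 library gave counts of 0 to 2 at GO1, 0 to 1 at FGO, 0 to 1 in WT from GO1 to GO2, 1 to 2 in KO from GO1 to GO2, 2 to 3 over the mean of 4 stages, 4 to 6 in WT from GO2 to FGO and 1 to 3 for the change between GO1 and FGO. The 3 for that change, with Haus2 added, came without KO GO1 replicate 2. The count at FGO was 1 without either WT FGO library, but the gene called was then Haus8 or Haus4 in place of Haus7. Over all genes the GO1 count of 965 ranged from 231 to 2741.

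With the replicate number as a block, the count at GO1 became 0 (Haus7 adjusted p = 0.0649) and the count for the change between GO1 and FGO became 1. Replicate deviations of WT and KO correlated with r of -0.02 to 0.10 over all tested genes. With 2 libraries per group this does not settle whether the numbers pair the samples.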
